A study of Mus musculus with 18 samples.

Results

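The assembly of CMG, the helicase that unwinds DNA at replication forks, was followed in mouse embryonic fibroblasts (MEFs) through 10 genes. They were chosen by name, for their known roles: Cdc45, Gins1, Gins2, Gins3, Gins4, Mcm10, Recql4, Cdc7, Dbf4 and Ticrr. All 10 are among the 51912 genes of the count table, and all 10 passed the filter on low counts, which left 15710 genes to be tested. The RNA came from primary MEFs at passage 1, grown in 15% FBS and 5% oxygen with no drug added, from embryos of Pole4+/- Trp53+/- matings in the C57BL/6 background whose head, heart and liver had been removed. Cells with Pole4 (Pole4+/+) and without it (Pole4-/-) were each measured with both Trp53 alleles (Trp53+/+), 1 allele (Trp53+/-) or none (Trp53-/-), which gives 6 genotypes of 3 libraries. The labels name neither a Cre nor an inducible element for these alleles. Whether the 3 libraries of a genotype came from separate embryos is not stated, so the p-values measure the spread between these libraries. The comparisons ask how the loss of Trp53, the gene of the tumour suppressor p53, and the loss of Pole4, an accessory subunit of DNA polymerase epsilon, change the RNA of the genes that turn licensed origins into active forks.

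Origins are licensed in G1 phase by loading the MCM ring, the motor of the helicase, on DNA in an inactive form. In S phase the kinase DDK, made of Cdc7 and its activating subunit Dbf4, phosphorylates MCM. The S-phase cyclin-dependent kinases act on Ticrr (also called treslin) and on other firing factors, and these steps bring Cdc45 and the 4-protein GINS complex (Gins1 to Gins4) onto MCM to make CMG. Recql4 is needed for this assembly, and Mcm10 for the step at which the finished helicases separate and unwind DNA. DNA polymerase epsilon, which synthesises the leading strand, travels with CMG and takes part in its assembly. Most of these genes are transcribed around the G1-S transition under E2F factors and are repressed when p53, acting through its target Cdkn1a (p21), holds cells out of the cycle.

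Libraries held 9535971 to 35319918 counts, with a median of 22781543. Levels are given as CPM (counts scaled to library size, after TMM, which corrects for a few abundant genes). Trp53 stood at 90.8, 58.1 and 10.75 CPM in Pole4+/+ cells with 2, 1 and 0 Trp53 alleles and at 69.1, 52.4 and 11.35 CPM in Pole4-/- cells. The genotype means of Pole4 were 20 to 22 CPM with the gene intact and 10.3 to 11.45 CPM in Pole4-/- cells. The reads that remain may lie outside the deleted part, so this level is no full check of that allele. Cdkn1a, which follows p53 activity, lay between 5.17 and 12.03 CPM in all 6 Trp53-/- libraries and between 149 and 363 CPM in the other 12. All 9 fibroblast markers were detected, at a summed 9862 to 20350 CPM, and the 5 erythroid markers together did not pass 1.77 CPM. Library 1 of Pole4+/+ Trp53-/- stood apart from its genotype in the genes described here. It also held 857 CPM of Xist, as female libraries do, together with 7.20 CPM of 4 Y-linked genes, which stood at 0.302 CPM or less in the other 10 female and at 166 to 202 CPM in the 7 male libraries. The counts of genes called and the medians of the comparisons that use it are given with and without it where it moved them by more than 1.5 times. Shares of all genes called are from the main edgeR fit unless stated, so most counts from other fits stand without a share.

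Per kilobase of summed exons, the level of the genes in Pole4-/- Trp53-/- cells ran from 2.01 ± 0.176 CPM per kb for Recql4 to 16.8 ± 0.770 for Gins4 (SD, n = 3). Dbf4 stood at 10.9 CPM per kb on this scale and at 39.5 per kb of its principal transcript, where it was the highest of the 10 and Gins4, again at 16.8, was next. That other length was tried after the values had been seen. Summed over the 18 libraries, raw counts were lowest for Gins3, with 26 to 198 counts a library, and highest for Dbf4, with 262 to 2300. The lowest single value was 17 counts, for Recql4. Gins4, whose product is a GINS subunit, lies on chromosome 8 (positions 23226616 to 23237659 of GRCm38), Gins3 at 95633453 to 95645060 and Gins2 at 120578633 to 120589304 of the same chromosome. Gins1 lies on chromosome 2 (150905400 to 150931280), as does Mcm10 (4989714 to 5012791). Both genes of DDK lie on chromosome 5, Dbf4 at 8396973 to 8422716 and Cdc7 at 106964322 to 106984432. Cdc45 lies on chromosome 16 (18780447 to 18811987), Recql4 on chromosome 15 (76703553 to 76710548) and Ticrr on chromosome 7 (79660196 to 79698148).

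RefSeq windows of 300 bases around the gene start (GRCm38.p6) were held for 6 of the 10 genes: Cdc45, Gins3, Mcm10, Cdc7, Dbf4 and Ticrr, with 2 starts for Cdc7. Both strands were searched for an E2F site written as TTTCCCGC, TTTGGCGC, TTTCGCGC or TTTGCCGC, for the CHR element of cell cycle genes written as TTTGAA or TTCGAA, and for the CCAAT box. No motif overlapped another in these windows. The E2F letters were in 2.3% of the 32851 windows of the table and in 1 of the 6 genes, Gins3. The CHR letters were in 19.2% of windows and in 4 of the 6 genes (Cdc45, Cdc7, Dbf4 and Gins3), and CCAAT in 37.4% of windows and in 4 of the 6 (Cdc45, Gins3, Mcm10 and Ticrr). The stretch of 120 bases before the start is printed for the gene with the E2F letters and for 2 of the genes with the largest fold changes, which have CCAAT boxes and no E2F letters. Capitals mark every whole match to one of the motifs.
Gins3, chr8:95633439-95633558, plus strand: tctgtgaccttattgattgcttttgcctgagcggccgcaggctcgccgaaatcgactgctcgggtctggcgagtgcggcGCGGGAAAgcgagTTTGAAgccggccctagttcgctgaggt
Mcm10, chr2:5012792-5012911, minus strand: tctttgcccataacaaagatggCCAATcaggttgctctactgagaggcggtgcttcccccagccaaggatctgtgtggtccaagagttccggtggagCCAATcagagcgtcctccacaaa
Ticrr, chr7:79660076-79660195, plus strand: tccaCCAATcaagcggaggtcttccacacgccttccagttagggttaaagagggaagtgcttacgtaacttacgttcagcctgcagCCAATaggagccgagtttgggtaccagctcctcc
Positions are counted from the RefSeq start, which for Gins3 lies inside the gene model used for the counts. In Gins3 the E2F letters, read as GCGGGAAA on the gene's strand, lay at bases -41 to -34 from the start, and TTTGAA followed at -28 to -23. Within the printed stretches, Mcm10 had CCAAT at -98 to -94 and at -23 to -19, and Ticrr at -116 to -112 and at -34 to -30. The CCAAT letters of Gins3, at -144 to -140 and at -124 to -120, lie before its printed stretch. A match is a run of letters and not a shown binding site, and no match says only that these letters are not in this window.

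**Figure D1:**
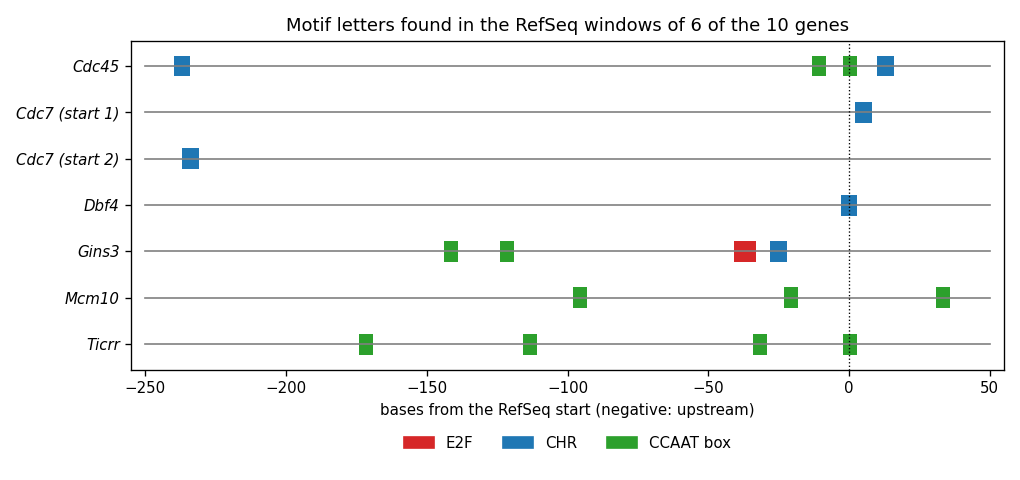
Position of motif letters in the RefSeq windows of 6 of the 10 genes (x axis, bases from the gene start, negative upstream; 1 row per start, coloured boxes for E2F, CHR and CCAAT letters on either strand). The E2F letters appear in Gins3 alone of the 6, and Ticrr holds 4 CCAAT boxes.

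In Pole4-/- cells, all 10 genes were higher without Trp53. Against Pole4-/- Trp53+/+, the log2 fold change in Pole4-/- Trp53-/- cells ran from 0.65 (Gins4) to 1.97 (Mcm10), with a median of 1.5, where the median of all genes tested was -0.02. All 10 were called higher (edgeR quasi-likelihood test, Benjamini-Hochberg adjusted p under 0.05), and 21.8% of all genes tested were called higher in this comparison. For all 10, the 3 libraries of one genotype did not overlap with the 3 of the other, which held in this direction for 28.5% of all genes. The study displayed replication initiation genes from these same libraries, so the direction is not independent evidence.

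**Figure D2:**
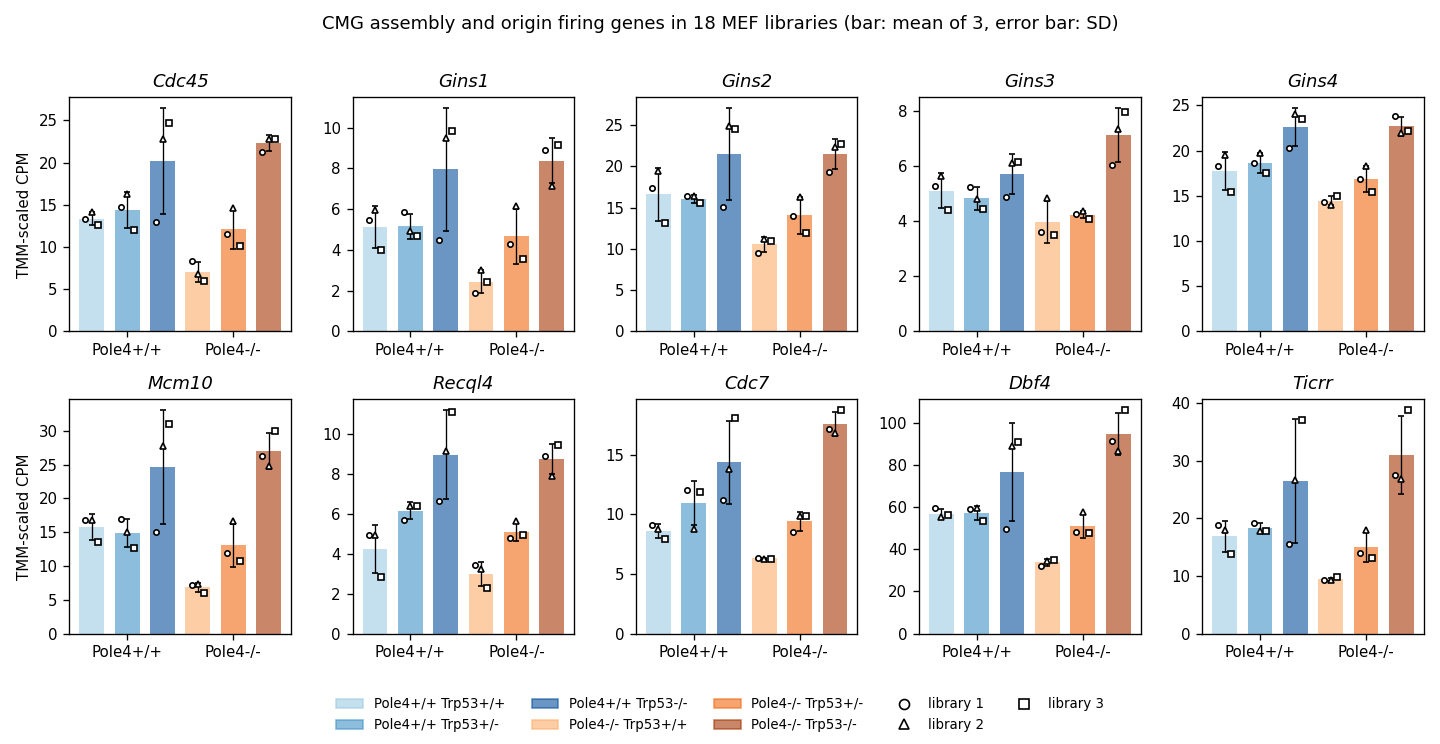
TMM-scaled CPM of the 10 genes (y axis, a scale of its own for each gene) in the 6 genotypes, with bars for the mean of 3 libraries, error bars for the SD and a symbol for each library. In every panel the Pole4-/- Trp53+/+ bar is the lowest, and library 1 of Pole4+/+ Trp53-/- (circle) lies below the other 2 libraries of its genotype.

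Of the factors that complete CMG, Cdc45 is the subunit that bridges MCM and GINS. It stood at 8.35, 6.76 and 6.02 CPM in the libraries of Pole4-/- Trp53+/+, at 11.5, 14.6 and 10.1 in Pole4-/- Trp53+/- and at 21.2, 22.8 and 22.8 in Pole4-/- Trp53-/- cells. These 3 genotypes did not overlap. The log2 fold change between the outer genotypes was 1.64 (SE 0.21, adjusted p 3.76e-05, edgeR), a 3.11-fold rise. Gins1, which codes for the GINS subunit PSF1, had 1.87, 3.01 and 2.41 CPM in the libraries of Pole4-/- Trp53+/+. It stood at 4.31, 6.17 and 3.54 CPM with 1 Trp53 allele and at 8.89, 7.12 and 9.15 CPM with none. It rose 3.51-fold between the outer genotypes (log2 1.81, SE 0.30, adjusted p 0.000294, edgeR).

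The other GINS subunits changed less. Gins2 rose by 1.03 on the log2 scale (SE 0.19, adjusted p 0.000501, edgeR), from 9.47 to 11.2 CPM in the Pole4-/- Trp53+/+ libraries to 19.4 to 22.7 CPM in the Pole4-/- Trp53-/- ones. Gins3 stood at 3.60, 4.84 and 3.48 CPM in Pole4-/- Trp53+/+ cells and at 6.03, 7.33 and 7.96 CPM in Pole4-/- Trp53-/- cells, a rise of 0.84 (SE 0.17, adjusted p 0.0012, edgeR). This gene, whose window holds both the E2F and the CHR letters, had the second smallest change of the 10. Gins4 had the smallest. It stood at 14.27, 14.02 and 14.99 CPM with Trp53 and at 23.9, 22.0 and 22.1 CPM without it (log2 0.65, SE 0.10, adjusted p 0.000199, edgeR).

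Ratios between the RNAs of the GINS subunits were taken after the fold changes had been seen, with Gins1 set against the subunits of smaller change, and so are a description with no test. The log2 ratio of Gins1 to Gins4 lay between -2.87 and -2.19 in Pole4-/- Trp53+/+ and between -1.61 and -1.27 in Pole4-/- Trp53-/- libraries, a difference of 1.12. The ratio of Gins1 to Gins3 differed by 0.94 and that of Gins1 to Gins2 by 0.75 between the same libraries. The ratio of Cdc7 to Dbf4, the genes of DDK, lay between -2.46 and -2.32 with Trp53 and between -2.50 and -2.37 without it, and these groups overlapped. In Pole4+/+ cells the difference between Trp53-/- and Trp53+/+ libraries was 0.21 for Gins1 to Gins4, 0.40 for Gins1 to Gins3 and 0.21 for Gins1 to Gins2, and the groups overlapped in each. That overlap came with library 1 of Pole4+/+ Trp53-/-, which stood at -2.15, -0.11 and -1.73 in these ratios: without it the differences were 0.50, 0.66 and 0.34 and the groups did not overlap. The ratio of Cdc7 to Dbf4 differed by 0.33 in Pole4+/+ cells and by 0.21 without that library, with overlap both times. Ratios here are between CPM of different genes and show unequal change, not amounts of protein.

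Dbf4 was the most abundant of the 10 in CPM. Its libraries stood at 32.0, 34.4 and 35.1 CPM in Pole4-/- Trp53+/+, at 48.4, 57.7 and 47.6 in Pole4-/- Trp53+/- and at 91.3, 87.0 and 106 in Pole4-/- Trp53-/- cells, with no overlap between genotypes. It rose 2.81-fold from the first to the last (log2 1.49, SE 0.17, adjusted p 1.56e-05, edgeR). Cdc7, the catalytic subunit, was the most even gene in Pole4-/- Trp53+/+ cells, at 6.33, 6.26 and 6.29 CPM. It stood at 8.49, 9.87 and 9.87 CPM with 1 Trp53 allele and at 17.2, 16.8 and 18.7 CPM with none. Cdc7 had the lowest adjusted p of the 10, 1.14e-05 (edgeR), for a log2 fold change of 1.48 (SE 0.16).

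Mcm10 had the largest change. Its 3 Pole4-/- Trp53+/+ libraries held 7.15, 7.35 and 6.02 CPM, the Pole4-/- Trp53+/- libraries 11.9, 16.6 and 10.7, and the Pole4-/- Trp53-/- libraries 26.3, 24.8 and 30.0. It rose 3.91-fold between the outer genotypes (log2 1.97, SE 0.24, adjusted p 2.16e-05, edgeR). Ticrr, the CDK target that recruits GINS and Cdc45, stood at 9.32, 9.26 and 9.77 CPM with Trp53 and at 27.5, 26.8 and 38.7 CPM without it (log2 1.71, SE 0.25, adjusted p 9.98e-05, edgeR). Library 3 was the highest of the Pole4-/- Trp53-/- libraries for both genes. Recql4, a helicase of the RecQ family, stood at 3.41, 3.26 and 2.28 CPM with Trp53 and at 8.89, 7.91 and 9.42 CPM without it (log2 1.52, SE 0.23, adjusted p 0.000119, edgeR).

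Other measures differed between the same libraries. Fibroblast markers summed to 16330 to 20350 CPM with Trp53 and to 9862 to 12300 CPM without it, and skeletal muscle markers (5 of 5 tested) to 49.0 to 68.0 and 22.5 to 31.4 CPM. These sums follow their most abundant genes, and single markers went both ways. Of the 9 fibroblast markers 7 had a lower mean without Trp53, among them the collagen genes Col1a1 (7966 and 4732 CPM) and Col1a2, while Pdgfra had 23.3 CPM with Trp53 and 66.3 CPM without it and Vim had 2551 and 2535 CPM. Des took most of the muscle sum (56.7 and 21.6 CPM), while Myod1 (0.125 and 0.467 CPM), Myog and Actc1 had higher means without Trp53. Epithelial markers (2 of 5 tested) summed to 2.02 to 2.67 and 4.40 to 20.2 CPM, and neuronal markers (2 of 4 tested) to 64.5 to 81.0 and 110 to 132 CPM. Of the defining markers of these types, the epithelial Krt14 and the neuronal Snap25 were at 0 in 11 of the 18 libraries, Epcam in 5, Cdh1 and Syp in 4, and Myod1 and Myog in 1. Krt14 was at 0 in all 3 Pole4-/- Trp53+/+ libraries and at 0.199 to 0.454 CPM in the 3 Pole4-/- Trp53-/- ones, and the epithelial Krt8 had 0.0835 to 0.134 and 0.89 to 4.44 CPM. Macrophage and endothelial sums overlapped between the groups, at 3.96 to 44.4 and 1.41 to 5.57 CPM over all libraries. Ribosomal RNA took 7.11 to 42.5% of counts in Pole4-/- Trp53+/+ and 24.7 to 30.0% in Pole4-/- Trp53-/- libraries. The part of these measures in the result was not tested. In bulk RNA, a larger share of cells in cycle and more RNA per cell cannot be told apart. Leaving out any 1 of the 6 libraries kept 10 genes called, with medians of 1.45 to 1.57.

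In Pole4+/+ cells the values for the loss of Trp53 were lower, and the test of the difference is given further on. The median log2 fold change of the 10 genes between Pole4+/+ Trp53-/- and Pole4+/+ Trp53+/+ was 0.60 (all genes 0.03), and the values ran from 0.15 (Gins3) to 1.06 (Recql4). Recql4 and Cdc7 were called higher, 2 of 10 where 2.23% of all genes were (edgeR), and 8 of 10 had an unadjusted p under 0.05 (19% of all genes). Groups did not overlap for 3 of the 10 (Gins4, Recql4 and Cdc7), against 8.24% of all genes in this direction. Without library 1 of Pole4+/+ Trp53-/- the groups overlapped for none of the 10, and no share of all genes is given for that. Recql4 stood at 4.93, 4.91 and 2.85 CPM with Trp53 and at 6.64, 9.12 and 11.1 CPM without it (log2 1.06, SE 0.22, adjusted p 0.00977, edgeR). Cdc7 stood at 9.10, 8.79 and 7.95 CPM with Trp53 and at 11.2, 13.8 and 18.03 CPM without it (log2 0.72, SE 0.15, adjusted p 0.0132, edgeR). In both genes library 1 was the lowest of the Trp53-/- libraries. Skeletal muscle markers summed to 41.4 to 71.2 CPM with Trp53 and 21.1 to 26.5 CPM without it in these cells, and their part in the result was not tested.

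That library held the other genes near the level of the Trp53+/+ libraries. Mcm10 stood at 15.1 CPM in it and at 27.8 and 30.96 CPM in libraries 2 and 3 of Pole4+/+ Trp53-/-, against 16.9, 16.8 and 13.5 CPM in Pole4+/+ Trp53+/+. Dbf4 stood at 49.9 CPM in it and at 89.2 and 90.8 CPM in the others, against 59.5, 55.5 and 56.1 CPM. Ticrr stood at 15.5, 26.7 and 37.0 CPM in libraries 1 to 3 against 18.8, 17.99 and 13.8 CPM. Cdkn1a stood at 11.8 CPM in this library and at 5.17 to 12.03 CPM in the 5 other Trp53-/- libraries, and Trp53 at 11.55 CPM beside 8.65 to 12.09 CPM. Without it, 9 genes were called (all but Gins3), where 8.58% of all genes were, and the median was 0.82. Without library 3 of Pole4+/+ Trp53-/- 2 were called and the median was 0.36. Without library 3 of Pole4+/+ Trp53+/+, Recql4 alone was called. The count was 9 with limma voom and sample quality weights, 3 with DESeq2, 1 with total-count scaling and 0 in a fit of only these 6 libraries.

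With 1 Trp53 allele left, the 10 genes of Pole4-/- cells lay between the genotypes with 2 and with 0. Against Pole4-/- Trp53+/+, the log2 fold change ran from 0.09 (Gins3) to 0.96 (Gins1), with a median of 0.64 (all genes -0.01). Mcm10 (0.92, SE 0.23, adjusted p 0.0390), Cdc7 (0.58, SE 0.16, adjusted p 0.0491) and Dbf4 (0.60, SE 0.17, adjusted p 0.0499) were called higher by edgeR, 3 of 10 where 2.96% of all genes were. Cdc45 followed at 0.75 with an adjusted p of 0.05002, just outside. Groups did not overlap for 9 of 10 genes (all but Gins3), against 21.4% of all genes in this direction. In Pole4-/- cells the change with 1 allele lost was 34.3 to 53.2% of the change with both lost, on the log2 scale, for all genes but Gins3, where it was 10.8%. Epithelial markers summed to 2.02 to 2.67 CPM with both alleles and to 3.90 to 6.47 CPM with 1, and their part was not tested. The calls sat at the threshold: leaving out 1 library gave 0 calls without library 2 of Pole4-/- Trp53+/- or any of the 3 Pole4-/- Trp53+/+ libraries, 1 without library 1 and 2 without library 3 of Pole4-/- Trp53+/-. DESeq2 called 6, voom 8, total-count scaling 8 and a fit of only these libraries 7, and a model with Xist as a covariate for sex called 0.

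The step from 1 allele to none in Pole4-/- cells had a median log2 fold change of 0.87. Here 9 of 10 genes were called higher, against 6.58% of all genes (edgeR). Gins1 was outside, at 0.85 (SE 0.28, adjusted p 0.0570). Gins3, which differed by 0.09 in the first step, rose by 0.75 in this one (SE 0.16, adjusted p 0.00873, edgeR). Mcm10 (1.05) and Ticrr (1.04) had the largest values. Between the same libraries, ribosomal RNA took 3.75 to 15.5% of counts with 1 allele and 24.7 to 30.0% with none, fibroblast markers summed to 15020 to 18540 and 9862 to 12300 CPM and muscle markers to 46.9 to 79.5 and 22.5 to 31.4 CPM, and their part was not tested. Both steps use the Pole4-/- Trp53+/- libraries and so are not independent. Without library 1 or library 3 of Pole4-/- Trp53+/- 4 genes were called, and without library 3 of Pole4-/- Trp53-/- 5. With total-count scaling, which moved the median of all genes to -0.33, none was called by edgeR, and the genes' median was 0.55.

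In Pole4+/+ cells neither single step was called for any of the 10 genes by edgeR. For Trp53+/- against Trp53+/+ the median was 0.04, 7 of 10 values were above 0, and 0.904% of all genes were called. Leaving out 1 library gave medians from -0.01 to 0.13. Recql4 (0.53) and Cdc7 (0.34) were the 2 genes with an unadjusted p below 0.05 (10.2% of all genes), and DESeq2 and voom called 0. For Trp53-/- against Trp53+/- the median was 0.44, all 10 values were above 0 and 9 had an unadjusted p under 0.05 (9.31% of all genes), with 0.579% of all genes called. The median was 0.28 without library 3 of Pole4+/+ Trp53-/- and 0.66 without library 1. DESeq2 called 0 here, voom 8 and edgeR without library 1 of Pole4+/+ Trp53-/- also 8. The shares of all genes called in these other fits are not given. All 3 Pole4+/+ Trp53+/- libraries were male and all Pole4+/+ libraries of the other genotypes female, so sex and genotype cannot be told apart in these steps.

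The difference of the Trp53-/- effects between Pole4-/- and Pole4+/+ cells was tested as an interaction. It was above 0 for all 10 genes, from 0.31 (Gins4) to 1.33 (Mcm10) on the log2 scale, with a median of 0.90. None of the 10 was called by edgeR, where 0.331% of all genes were, and 8 had an unadjusted p under 0.05, as did 28.3% of all genes. Dbf4 had the lowest adjusted p, 0.0502 (1.07, SE 0.23), and Mcm10 followed with 0.0524 (SE 0.32). DESeq2 and voom called 6 each. Leaving out 1 library gave 0 to 8 calls: 2 without library 1, 3 without library 2 and 8 without library 3 of Pole4+/+ Trp53-/-, and 2 without library 3 of Pole4+/+ Trp53+/+. The interaction of the Trp53+/- effects was also above 0 for all 10 genes (median 0.51, highest 0.99 for Mcm10). Of all genes 0% were called in it, none of the 10 by edgeR or DESeq2 and 2 by voom, and 4 had an unadjusted p under 0.05 (10.1% of all genes).

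**Figure D3:**
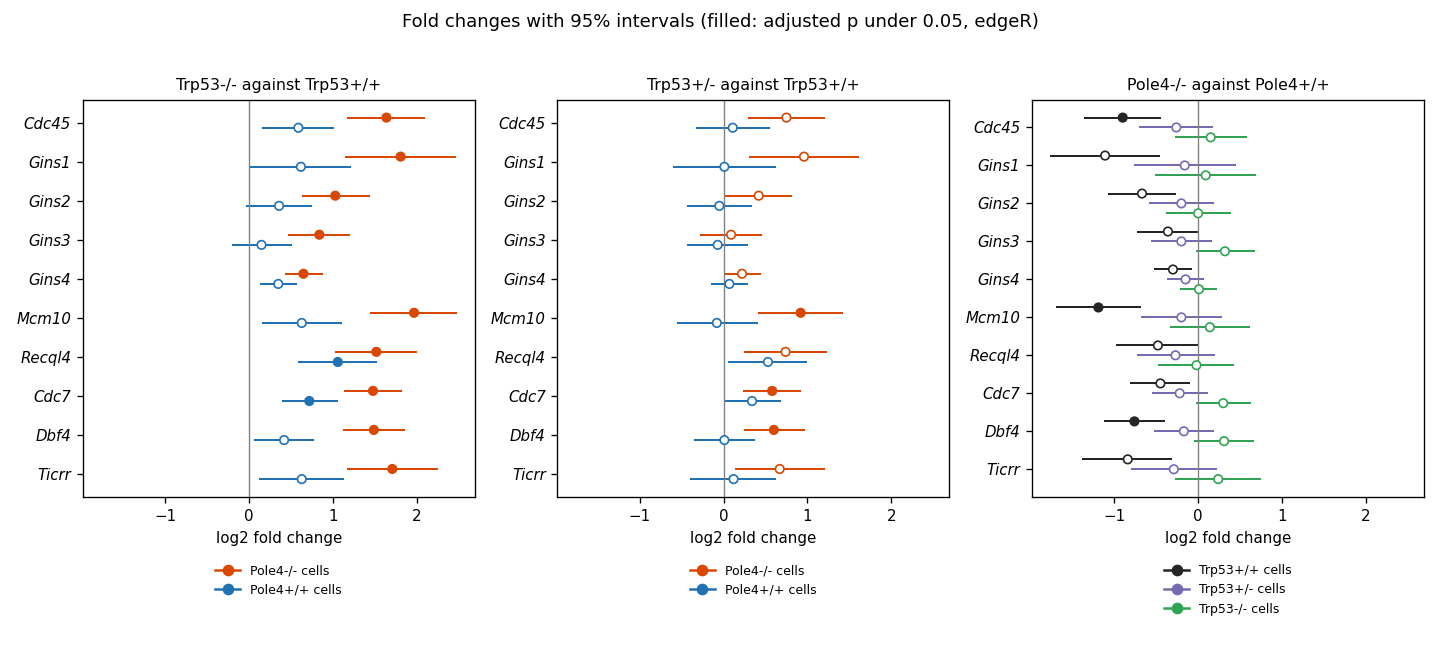
Log2 fold change (x axis) of the 10 genes with 95% intervals from edgeR, for the loss of both Trp53 alleles, of 1 allele, and of Pole4, coloured by the background in which the comparison was made (filled points, adjusted p under 0.05). Without Trp53 in Pole4-/- cells the values run from 0.65 to 1.97, and the loss of Pole4 gives negative values for all 10 genes in Trp53+/+ and Trp53+/- cells, of which 3, all in Trp53+/+ cells, were called.

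In cells with both Trp53 alleles, all 10 genes had lower means without Pole4, and 3 of them were called lower. Between Pole4-/- Trp53+/+ and Pole4+/+ Trp53+/+ the log2 fold change was below 0 for all 10, from -0.30 (Gins4) to -1.19 (Mcm10), with a median of -0.71 (all genes 0.01). Mcm10 (-1.19, SE 0.23, adjusted p 0.0203), Dbf4 (-0.76, SE 0.17, adjusted p 0.0278) and Cdc45 (-0.90, SE 0.21, adjusted p 0.0324) were called lower by edgeR, 3 of 10 where 2.7% of all genes were. Gins1 (-1.11, adjusted p 0.0523) and Gins2 (-0.67, adjusted p 0.0541) lay just outside, and 9 of 10 had an unadjusted p under 0.05 (26.1% of all genes). Groups did not overlap for 8 of 10 genes, against 21.7% of all genes in this direction. Mcm10 stood at 7.15, 7.35 and 6.02 CPM without Pole4 and at 16.9, 16.8 and 13.5 CPM with it. Cdc45 stood at 8.35, 6.76 and 6.02 CPM without Pole4 and at 13.3, 14.1 and 12.6 CPM with it. Gins3 and Recql4 were the genes whose groups overlapped. Between the same libraries, fibroblast markers summed to 11760 to 15420 CPM with Pole4 and 16330 to 20350 CPM without it, and epithelial markers to 2.75 to 6.76 and 2.02 to 2.67 CPM. Ribosomal RNA took 5.81 to 11.2% and 7.11 to 42.5% of counts. The part of these measures in the result was not tested.

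All 3 Pole4+/+ Trp53+/+ libraries were female, and of the Pole4-/- Trp53+/+ libraries library 1 was female and libraries 2 and 3 male. The female Pole4-/- library alone lay below all 3 Pole4+/+ libraries for 9 of the 10 genes, Recql4 being the other, as it did for 34.8% of all genes. This rests on 1 library, and sex and genotype are not fully separated in this comparison. The count of 3 was 0 with Xist as a covariate and 0 without any 1 of the 3 Pole4-/- Trp53+/+ libraries or of libraries 1 and 2 of Pole4+/+ Trp53+/+, and 7 without library 3 of Pole4+/+ Trp53+/+. The fold changes moved less than the calls. Over the 6 fits without 1 library the median stayed between -0.79 and -0.67, and over 8 other settings, Xist among them, Mcm10 ran from -1.46 to -1.09 and Cdc45 from -1.16 to -0.80. DESeq2 called 6 and voom 10. Total-count scaling, which moved the median of all genes to -0.28 in this comparison, called 8. The shares of all genes called under these settings are not given.

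With 1 Trp53 allele or none, no effect of Pole4 on the 10 genes was detected. In Trp53+/- cells the values ran from -0.29 to -0.15 with a median of -0.20, and in Trp53-/- cells from -0.02 to 0.32 with a median of 0.15. None of the 10 was called by edgeR, DESeq2 or voom in either comparison or had an unadjusted p under 0.05, and 0.00637% of all genes, 1 gene, were called in each. The deleted Pole4 itself was not called by edgeR in either. Its mean was 21.1 CPM in Pole4+/+ and 10.8 CPM in Pole4-/- cells with 1 Trp53 allele, and 22.0 and 11.45 CPM without Trp53. These tests, adjusted over all genes, can thus miss a change of that size. For Cdc45 the 95% interval of the difference in Trp53-/- cells was -0.28 to 0.58, and for Mcm10 -0.33 to 0.62. In Trp53+/- cells 4 of the 10 intervals (Gins3, Gins4, Recql4 and Cdc7) held the value seen in Trp53+/+ cells. In Trp53-/- cells that of Recql4 did. Whether the Trp53+/+ and Trp53-/- values differ is what the interaction tests, which called none of the 10 (lowest adjusted p 0.0502, edgeR). In Trp53+/- cells groups did not overlap for Gins3 and Recql4, 2 of 10, where 13.1% of all genes did not overlap in either direction. In Trp53-/- cells the median was -0.25 with total-count scaling, higher than that of all genes, which it moved to -0.44, and it was -0.07 without library 1 and 0.32 without library 3 of Pole4+/+ Trp53-/-. In Trp53+/- cells it was -0.33 without library 2 and -0.12 without library 3 of Pole4-/- Trp53+/-. Other measures differed between the same libraries. In Trp53-/- cells ribosomal RNA took 1.82 to 13.1% of counts with Pole4 and 24.7 to 30.0% without it. Fibroblast markers summed to 12630 to 16930 and 9862 to 12300 CPM there. In Trp53+/- cells muscle markers summed to 19.8 to 28.5 CPM with Pole4 and 46.9 to 79.5 CPM without it. The part of these measures was not tested. Of the Trp53+/- libraries, 3 with Pole4 and 1 without it were male, and of the Trp53-/- libraries 0 and 1. Sex and genotype are thus not fully separated in these comparisons or in the interactions. The comparisons above share libraries. Over the 6 genotypes, Pole4-/- Trp53+/+ had the lowest mean for all 10 genes and a Trp53-/- genotype the highest, Pole4-/- for 8 genes and Pole4+/+ for Gins2 and Recql4. Which Trp53-/- genotype was the highest rests on library 1 of Pole4+/+ Trp53-/-: without it, Pole4+/+ had the higher mean for 7 genes and Pole4-/- for Gins3, Cdc7 and Dbf4.

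The 10 genes moved together across libraries. Over the 45 pairs, Pearson's r of log2 CPM across the 18 libraries had a median of 0.92 and ran from 0.78 to 0.98. The libraries share genotypes, so r was also taken on the deviations from the genotype means, where the median was 0.67 and the range 0.23 to 0.91. These are descriptions of 18 libraries, which differ in depth and share the scaling. The values on deviations include library 1 of Pole4+/+ Trp53-/-, which stood apart from its genotype, and are not given without it. Gins3 and Recql4 tracked the mean of the other 9 least (0.87 and 0.91) and Mcm10 and Ticrr most (0.98 each). The 5 genes outside the list most like the mean profile of the 10 were Cep55, Ccna2, Ccnb1, Chaf1a and Pclaf, with r from 0.994 to 0.995 over the 18 libraries. Cep55 acts in cytokinesis, Ccna2 and Ccnb1 are cyclins, Chaf1a is a histone chaperone of the fork and Pclaf binds PCNA.

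A list of 10 mitotic genes, among them Mki67, Top2a, Plk1 and Bub1, followed the same course. Its mean profile (the mean of each gene's log2 CPM, centred and scaled over the 18 libraries) had an r of 0.99 with that of the 10 genes. In library 1 of Pole4+/+ Trp53-/- both profiles stood at -0.05, where libraries 2 and 3 had 1.16 and 1.40 for the 10 genes and 1.00 and 1.40 for the mitotic ones. Between Pole4-/- Trp53-/- and Pole4-/- Trp53+/+ cells all 10 mitotic genes were called higher, with a median log2 fold change of 1.67, beside 1.5 for the CMG assembly and firing genes. In Pole4+/+ cells 2 were called, with a median of 0.59, and all 10 without library 1 of Pole4+/+ Trp53-/-, with a median of 0.76. With Pole4 lost in Trp53+/+ cells all 10 were called lower, with a median of -0.84. The part of the share of cycling cells in the results above was not tested.

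**Figure D4:**
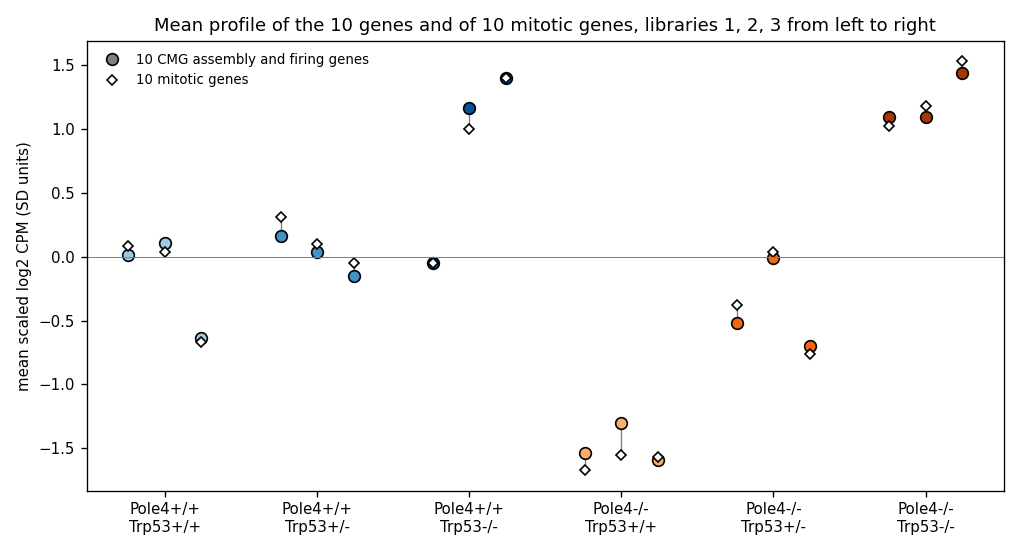
Mean scaled log2 CPM (y axis, in SD units over the 18 libraries) of the 10 CMG assembly and firing genes (circles) and of 10 mitotic genes (diamonds) in each library, by genotype. The pairs lie close together in all 18 libraries, and library 1 of Pole4+/+ Trp53-/- stands at -0.05 in both.

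Genes of the helicase motor, of DNA polymerase epsilon and of other steps of firing, fork protection and unloading were taken from a list of 26. Of these, 25 were called higher by edgeR when Pole4-/- cells lacked Trp53, the exception being Pole4 itself (0.14), and the median was 1.49. All 6 MCM subunits of the motor rose, from 1.48 for Mcm4 to 1.97 for Mcm5. Of DNA polymerase epsilon, Pole2, its second subunit, rose most (1.79, SE 0.25, adjusted p 6.31e-05). Of the other firing and assembly factors, Wdhd1, which links CMG to DNA polymerase alpha, rose most (1.47) and Mtbp, the partner of Ticrr, least (1.10). Among the S-phase CDK genes the range was 0.88 for Ccne1, a G1-S cyclin, to 1.89 for Ccna2, the S-phase cyclin.

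Of the genes that protect forks, Clspn (1.78) rose most and Tipin (1.28) least. Genes that oppose firing or take CMG off DNA rose as well. Rif1, which brings a phosphatase that reverses the action of DDK, rose by 1.17 (SE 0.12, adjusted p 8.61e-06), and Traip, a ubiquitin ligase of CMG unloading, by 1.69 (SE 0.21, adjusted p 2.86e-05). In Pole4+/+ cells 4 of the 26 were called higher, with a median of 0.53, and 22 without library 1 of Pole4+/+ Trp53-/-, with a median of 0.7. In cells with both Trp53 alleles, 14 of the 26 were called lower without Pole4, with a median of -0.77. The 6 MCM genes were all among them, from -0.80 to -1.07, as was the deleted Pole4.

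Of the 4 tested genes that start beside a member of the 10, none was called higher. Within 1000 bases, 5 of the 10 have a gene on the other strand that starts in the opposite direction. Ufd1, whose start lies 208 bases from that of Cdc45 with both overlapping, had 38.7 ± 2.31 CPM in Pole4-/- cells with Trp53 and 39.5 ± 1.58 CPM in those without it (SD, n = 3). The log2 fold change of Ufd1 was thus 0.03 (SE 0.08, adjusted p 0.826, edgeR), beside 1.64 for Cdc45. For Lrrc14, 75 bases from the start of Recql4, it was -0.03 (adjusted p 0.901), and for Abhd12, 659 bases from Gins1, -0.20 (adjusted p 0.0777). Slc25a40, a mitochondrial carrier gene 134 bases from the start of Dbf4, fell by 0.45 on the log2 scale (SE 0.17, adjusted p 0.0419, edgeR), from 14.4 ± 0.881 to 10.5 ± 0.174 CPM, while Dbf4 rose. Gm10614, 227 bases from Gins2, did not pass the filter on low counts.

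Exons of 4 of the 10 overlap those of a gene on the other strand, and the library kit is not stated to keep strand, so reads in the shared part cannot be assigned by it. The overlap took 67.32% of the exon length of Gins2, with Gse1. It took 9.72% of Recql4, with Mfsd3, 5.96% of Cdc45, with Ufd1, and 0.51% of Ticrr, with Kif7. Gse1 also rose between Pole4-/- Trp53+/+ and Pole4-/- Trp53-/- cells (0.72, SE 0.14, adjusted p 0.000923), so the value of Gins2 is uncertain. Mfsd3, a transporter-like gene at 2.88 ± 0.288 and 1.10 ± 0.0367 CPM, fell by 1.37 (SE 0.27, adjusted p 0.00108), against the direction of Recql4. Ufd1 (above) and Kif7 (0.07, adjusted p 0.749) were not called.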

How the data were processed

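The values are expected counts per gene, deposited by the authors as 1 table of 18 libraries. For these the authors used Trim Galore, then STAR 2.5.2 on the GRCm38 build, then RSEM 1.3.0, which divides reads between genes, so that 6.14% of values are not whole. The labels name TRIzol and the methods a column kit for the RNA. Amplified cDNA was made with an Ovation kit, and PCR copies are not removed from counts. Values were rounded here and fitted in R 4.3.3 with edgeR 4.0.16 (TMM, filterByExpr, 1 mean per genotype over 18 libraries, robust quasi-likelihood test, Benjamini-Hochberg over 15710 genes, called under 0.05), after a test on simulated data. Alternatives used DESeq2 1.42.0 and limma 3.58.1. SE is the log2 fold change over the square root of F. Gene models are GENCODE's (51633 identifiers matched). The genes and lists were chosen with earlier results of these data known. Genes named beside them are the extremes of each role, the 5 most alike, head-to-head neighbours and, chosen after their values were seen, genes with shared exons. Every pair of libraries of a genotype differed by more than counting noise.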

Additional observations from a re-analysis of the deposited data

How the results depend on the processing

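The 10 genes called in Pole4-/- cells without Trp53 stayed at 10 under every alternative run, with each library left out included, and no gene's fold change turned its sign in the 4 comparisons for which single genes were followed. The other counts moved, and the shares of all genes called under the other settings are not given here. For Trp53-/- against Trp53+/+ in Pole4+/+ cells (2 genes called), an adjusted p under 0.01 gave 1, total-count scaling 1, a fit of only the libraries compared 0 and voom with quality weights 9, and leaving out 1 library gave 1 to 9. For Trp53+/- against Trp53+/+ in Pole4-/- cells (3), an adjusted p under 0.01 gave 0, DESeq2 6, total-count scaling 8 (median 0.93), no filter 5, only the libraries compared 7, voom 8 and the Xist covariate 0, and leaving out 1 library 0 to 2. For Trp53-/- against Trp53+/- in Pole4-/- cells (9), an adjusted p under 0.01 gave 4 and total-count scaling 0, and leaving out 1 library 4 to 10. For the same step in Pole4+/+ cells (0), voom gave 8, and leaving out 1 library 0 to 8. For the loss of Pole4 in Trp53+/+ cells (3), an adjusted p under 0.01 gave 0, DESeq2 6, total-count scaling 8, no filter 5, a mean of at least 50 counts 5, only the libraries compared 7, voom 10 and the Xist covariate 0, and leaving out 1 library 0 to 7. For the interaction of the Trp53-/- effects (0), DESeq2 gave 6, no filter 3, a mean of at least 50 counts 2 and voom 6, and leaving out 1 library 0 to 8. For the interaction of the Trp53+/- effects (0), voom gave 2, and total-count scaling moved the median from 0.51 to 0.81. The cause of these moves was not tested.

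Replicate numbers were not stated to pair cultures. Same-numbered libraries of different genotypes had correlations of their deviations from -0.26 to 0.59, so they were taken to share only a number. With the number as a block, 5 genes were called for the loss of Pole4 in Trp53+/+ cells and 2 in the interaction of the Trp53-/- effects, and the other counts stayed within 1.5 times. A further limit is 3 libraries per genotype, of which Recql4 and Gins1 held as few as 17 and 18 counts. PCR copies were not marked, so counting error is a lower limit.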

Other observations

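Library 1 of Pole4+/+ Trp53-/- held 7.20 CPM of the Y-linked genes Ddx3y, Eif2s3y, Kdm5d and Uty together beside 857 CPM of Xist. The 2 other libraries of that genotype held 0 and 0.0776 CPM of them. The origin of this signal was not tested, and the library was kept under its label.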
